A study of Mus musculus with 22 samples.

Results

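The mouse mitochondrial genome encodes 13 subunits of the respiratory chain and ATP synthase, 2 ribosomal RNAs and 22 transfer RNAs. All 37 gene names that begin with mt- were taken, out of 55291 names in each RNA-seq library, and were split into these 3 classes. No mt- name occurred more than once in a library. The values are FPKM, a fragment count adjusted for gene length and library size, so that levels of different genes can be compared per length, while the read depth behind them is unknown.

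The study sorted memory CD4+ T cells of the Th2 type, which drive allergic inflammation, after transfer into mice exposed to ovalbumin (OVA). RNA was sequenced in 8 of the 22 samples, with 2 libraries for each of 4 groups, and the 14 ATAC-seq samples were not analysed here. The groups cross where the cells were found (tissue or circulating) with where they came from (ex-TRM or ex-Tcirc). The design text uses TRM for tissue-resident memory Th2 cells and sets TCIRC cells beside them as the other population taken from lung.

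All 4 groups carry the same labels apart from their names: lung CD4+ T cells of female mice, 6 to 10 weeks old, with Balb/c as host strain. The lung label of the circulating groups differs from the protocol, which takes circulating ex-TRM cells from peripheral blood and names no source for circulating ex-Tcirc cells, so what was sampled as circulating is not settled. The design text describes 2 models for the whole series. In one, OT-II creERT2 Th2 cells went into OVA-sensitized C57BL/6 (Ly5.2) recipients, recombination was induced with tamoxifen, and cells were taken on day 49. In the other, lung TRM and TCIRC cells of DO11.10 origin were transferred a second time into BALB/c-nu/nu recipients, which lack their own mature T cells, and were taken on day 71 after OVA rechallenge. Which model each RNA library came from is not in its labels, nor is what promoter drives creERT2, whether mice were pooled, or whether the replicates are separate mice, so p-values measure only the spread between these libraries. Between 3000 and 50000 sorted cells went into a preparation. The protocol names a lysis step that isolates nuclei ahead of transposition or RNA extraction, and it does not settle whether the RNA came from whole cells or from nuclei. The effect of that step on mitochondrial RNA was not tested.

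Mitochondrial DNA is a small circle that is read from both strands into long transcripts covering many genes. Transfer RNAs lie between most of the other genes, and cutting them out releases the mRNAs and ribosomal RNAs. The mRNAs encode core subunits of complexes I, III and IV and of ATP synthase, and each of these complexes is finished with subunits encoded in the nucleus. Transcription, RNA processing and translation inside the organelle also depend on proteins made from nuclear genes.

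The libraries differ in how much they hold. Between 29688 and 37894 names were above 0 in the 4 tissue libraries and circulating ex-TRM replicate 2, against 12785 and 7042 in circulating ex-Tcirc replicates 1 and 2. Circulating ex-TRM replicate 1 had 917 names above 0 and 1 of 12 housekeeping genes, and it is treated as missing, so that circulating ex-TRM is 1 library and its spread is not known. In circulating ex-Tcirc replicate 2, 5 of the 12 housekeeping genes (Tubb5, Hprt, Ppia, Tbp and Pgk1) were listed at 0, so a 0 there need not mean that a gene is silent. T cell markers were present in all 7 libraries, with a summed level of 1231 to 1791 FPKM over 8 genes, and 5 to 8 of the 8 were above 0 (Cd3d was at 0 in both circulating ex-Tcirc libraries). Macrophage and monocyte markers summed to 46.9 to 172 FPKM in tissue and to 817 and 300.4 FPKM in the circulating ex-Tcirc libraries and 65.1 in that of circulating ex-TRM, mostly Lyz2, with Marco at 0 in all 7. Epithelial markers summed to 3.99 to 96.1 FPKM in tissue, to 588 and 0 in replicates 1 and 2 of circulating ex-Tcirc, and to 28.9 for the circulating ex-TRM library. B cell markers, mostly Igkc and Ighm, summed to 19.9 to 392 FPKM in tissue, with the highest value in tissue ex-Tcirc replicate 1. They summed to 255 and 0 in replicates 1 and 2 of circulating ex-Tcirc and to 35.7 for the circulating ex-TRM library. The part these other cells play in the values below was not tested. In bulk samples, fewer cells of a type and less RNA per cell cannot be told apart.

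Values below follow one order: ex-Tcirc replicates 1 and 2 then ex-TRM replicates 1 and 2 for tissue, and ex-Tcirc replicates 1 and 2 then ex-TRM replicate 2 for the circulating libraries, written as "in circulation".

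Among the mRNAs, 7 of 13 were lower in every tissue library than in every circulating library: mt-Nd4, mt-Nd4l, mt-Nd5, mt-Nd6, mt-Cytb, mt-Co1 and mt-Atp6. The other 6 overlapped, and none was higher in every tissue library. Both ribosomal RNAs were also lower in every tissue library. Of the 2656 genes tested (mean of at least 20 FPKM over the 7 libraries), 11.8% separated in that direction, and of the 1558 of these above 0 in all 7 libraries, 20.1% did. No mRNA or ribosomal RNA passed the test of the difference when both origins were averaged, and all 3 mitochondrial genes that did pass were transfer RNAs, higher in tissue. With a pseudocount of 0.1 in place of 1, mt-Nd5 and mt-Cytb were called lower in tissue as well (limma, adjusted p = 0.0352 and 0.0401). At that setting 32 of the 2656 genes were called lower, against 21 with a pseudocount of 1.

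**Figure D1:**
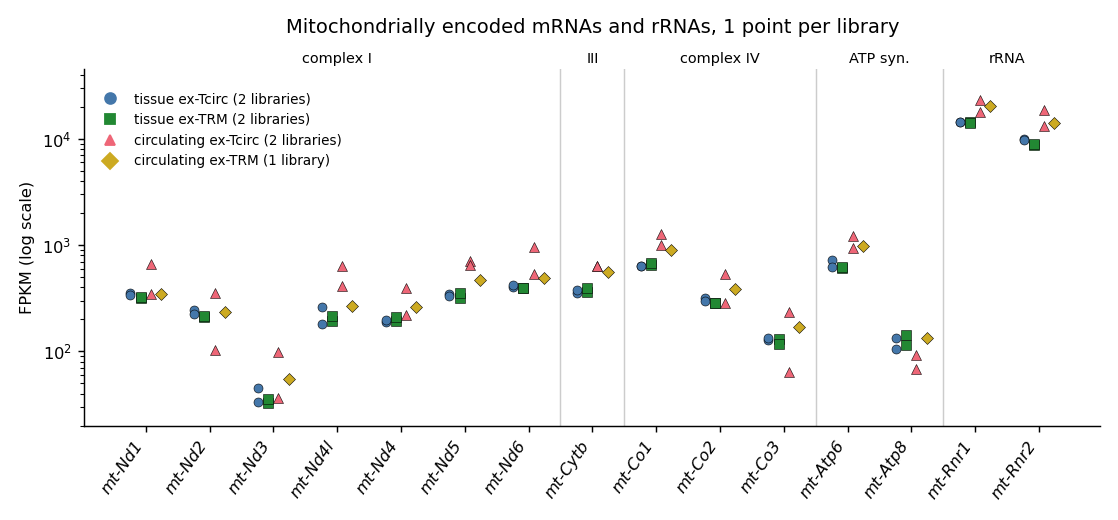
FPKM (log scale) of the 13 protein-coding and 2 ribosomal RNA genes in 7 libraries, 1 point per library, coloured by group and ordered by the complex that each gene's product joins. The 4 tissue libraries lie close together for most genes, and the circulating libraries lie above them for mt-Nd5, mt-Cytb, mt-Co1, mt-Atp6 and both ribosomal RNAs.

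Complex I takes electrons from NADH, and 7 of its subunits are mitochondrial. mt-Nd5 (mitochondrial chromosome, 11742 to 13565, GRCm38.p6), part of the proton-pumping arm, stood at 343, 329, 318 and 357 FPKM in tissue and at 708, 650 and 474 FPKM in circulation. All 3 circulating values lay above all 4 tissue values, and the circulating mean (611 FPKM ± 122, SD, n = 3) was 1.82 times the tissue mean (336 FPKM ± 16.9, SD, n = 4). Such means and SDs, here and below, pool both origins, and the circulating ones lean to ex-Tcirc. The limma difference weighs the origins equally. The ratio of means for mt-Nd5 was 2.02 within ex-Tcirc and 1.41 within ex-TRM. On the log2(FPKM + 1) scale the difference, tissue minus circulating, was -0.75 with a standard error of 0.15 (limma, adjusted p = 0.0765), the lowest adjusted p among the 13 mRNAs.

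mt-Nd4l (9877 to 10173), a small membrane subunit, had the largest ratio among the mRNAs with the libraries of each location pooled. Within ex-Tcirc its ratio was 2.34, and within ex-TRM it was 1.33. The level of mt-Nd4l was 263, 183, 191 and 214 FPKM in tissue and 634, 408 and 269.6 in circulation. The lowest circulating value stood just above the highest tissue value. The circulating mean was 2.05 times the tissue mean, and the log2 difference came to -0.81 ± 0.27 (SE; limma, adjusted p = 0.234). mt-Nd4 (10167 to 11544), a larger membrane subunit whose start overlaps the end of mt-Nd4l, was at 191, 196, 192 and 209 FPKM in tissue. In circulation it was at 391, 219.8 and 259 FPKM, so that circulating ex-Tcirc replicate 2 stood close to tissue. Reads in such overlaps may count for either gene.

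mt-Nd6 (13552 to 14070) is the one mRNA read from the other strand, and its end overlaps that of mt-Nd5. It was at 407, 423, 395 and 395 FPKM in tissue and 955, 533 and 485 in circulation. The tissue values spread by little and all lay below the circulating ones, with circulating ex-Tcirc replicate 1 far above the rest. The libraries were made with a strand-specific kit, but the strand setting used in counting is not given in the sources used here, so reads of mt-Nd6 and of the long transcript opposite it may not be separated.

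The other complex I mRNAs overlapped between the locations. mt-Nd1 (2751 to 3707) was at 351, 339, 315 and 327 FPKM in the tissue libraries, at 663, 346 and 345 in circulation. mt-Nd2 (3914 to 4951) was at 245, 226, 212 and 215 FPKM in tissue, at 353, 103 and 235 in circulation. mt-Nd3 (9459 to 9806) was at 45.4, 33.3, 32.8 and 35.9 FPKM in tissue, at 99.7, 36.4 and 54.6 in circulation. For all 3 the highest value was in circulating ex-Tcirc replicate 1, and for mt-Nd2 the lowest was in replicate 2 of the same group, so that the spread within that group was wider than the difference between locations.

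mt-Cytb (14145 to 15288), cytochrome b, is the single mitochondrial subunit of complex III, which passes electrons to cytochrome c. Its values were 355, 376, 358 and 398 FPKM in tissue and 636, 641 and 561 in circulation. The gap between locations was wider than the spread within either one, at a circulating mean of 613 FPKM ± 45.0 (SD, n = 3) against 372 ± 19.9 (SD, n = 4). The log2 difference was -0.69 ± 0.15 (SE; limma, adjusted p = 0.0919).

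Complex IV hands the electrons to oxygen. mt-Co1 (5328 to 6872), its catalytic core, was at 633, 640, 654 and 676 FPKM in tissue and 1269, 992 and 889 in circulation. All circulating values lay above all tissue values, and the log2 difference was -0.62 ± 0.17 (SE; limma, adjusted p = 0.158). mt-Co2 (7013 to 7696), which receives the electrons from cytochrome c, overlapped at 318, 295, 283 and 283 FPKM in tissue against 535, 285 and 382 in circulation. mt-Co3 (8607 to 9390), the other core subunit, overlapped more widely, at 117 to 135 FPKM in tissue, 233, 63.9 and 170.2 in circulation. For mt-Co3, the 2 replicates of circulating ex-Tcirc were the highest and the lowest of the 7 libraries.

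ATP synthase uses the proton gradient to make ATP, and its mitochondrial subunits come from one shared mRNA whose reading frames overlap. mt-Atp6 (7927 to 8607), which forms the proton channel, was at 718, 627, 612 and 627 FPKM in tissue and 1218, 936 and 989 in circulation. It separated the locations, and the log2 difference came to -0.67 ± 0.18 (SE; limma, adjusted p = 0.153). mt-Atp8 (7766 to 7969) was at 106, 134, 142 and 114 FPKM in tissue and 91.8, 68.2 and 134 in circulation. It was the only mRNA with a lower mean in the circulating libraries (0.79 of the tissue mean), and its values overlapped. At 204 bases mt-Atp8 is the shortest of the 13, and FPKM values of genes near the length of a fragment are less sure.

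The ribosomal RNAs, which form the core of the organelle's ribosome, were the most abundant mitochondrial transcripts. mt-Rnr1 (70 to 1024), of the small subunit, was at 14263, 14466, 14267 and 14181 FPKM in tissue and 23325, 17909 and 20196 in circulation. mt-Rnr2 (1094 to 2675), of the large subunit, was at 9950, 9624, 8784 and 8887 FPKM in tissue and 18543, 13116 and 14205 in circulation. Both separated the locations, at 1.43 and 1.64 times the tissue mean. Their log2 differences were -0.51 ± 0.21 and -0.68 ± 0.22 (SE; limma, adjusted p = 0.344 and 0.225). The ratio of mt-Rnr1 to mt-Rnr2 was 1.43, 1.5, 1.62 and 1.60 in tissue and 1.26, 1.37 and 1.42 in circulation.

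Averaged over origins, the limma fit over 7 libraries called 7.34% of the 2656 genes at an adjusted p under 0.05, with 6.55% higher and 0.791% lower in tissue. Of the 13 mRNAs, 11 had a negative difference and none was called. Their median log2 difference was -0.54, beside 0.43 for all genes tested, and 5 had an unadjusted p under 0.05 (mt-Nd4l, mt-Nd5, mt-Cytb, mt-Co1 and mt-Atp6). Without circulating ex-Tcirc replicate 1, 5 of 13 mRNAs were called lower (the same 5) and mt-Nd2 was called higher, while 17.4% of all genes were called lower and 51.6% higher. Without circulating ex-Tcirc replicate 2, 11 of 13 were called lower, those 5 among them, with 18.9% of all genes called lower and 19.2% higher. In both of these fits the spread is estimated from the 4 tissue libraries alone and each circulating library is assumed to vary like them.

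Within ex-Tcirc (2 tissue against 2 circulating libraries), 9.11% of genes were called, 8.36% higher and 0.753% lower in tissue. None of the 13 mRNAs was among them: 10 had a negative difference, the median was -0.62 beside 0.87 for all genes, and mt-Nd5 came nearest to the threshold at -1.01 ± 0.19 (SE; limma, adjusted p = 0.0584). With a pseudocount of 0.1, mt-Nd5 and mt-Cytb were called lower here too (limma, adjusted p = 0.0279 and 0.0482). At that setting 26 of 2656 genes were called lower, against 20 with a pseudocount of 1. The same 7 mRNAs that separated the locations over all libraries were lower in both tissue libraries here, and mt-Atp8 was higher in both, beside 17.7% of genes tested lower and 29.9% higher without overlap, or 30.1% and 20.5% of those above 0 in all 7 libraries. The unadjusted p was under 0.05 for 5 mRNAs. Without circulating ex-Tcirc replicate 1, mt-Nd4l, mt-Nd5, mt-Cytb and mt-Co1 were called lower and mt-Nd2, mt-Co3 and mt-Atp8 higher, beside 18.0% of all genes lower and 55.4% higher. Without replicate 2, 11 of 13 were called lower, beside 17.6% of all genes lower and 22.1% higher.

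Within ex-TRM (2 tissue libraries against 1 circulating library, whose spread is taken from the other groups), 0% of genes were called in either direction. All 13 mRNAs had a negative difference, from -0.67 for mt-Atp6 to -0.07 for mt-Atp8, and 12 of them lay below the circulating library in both tissue libraries, all but mt-Atp8. The background for that count is high, since 48.7% of genes tested were lower in both tissue libraries than in this 1 library and 38.7% were higher, or 52.7% and 34.4% of those above 0 in all 7. The median over the mRNAs was -0.42 beside -0.06 for all genes, no mRNA had an unadjusted p under 0.05, and the adjusted p was 1 for each (limma). Of all 2656 genes, 87 had an unadjusted p under 0.05.

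**Figure D2:**
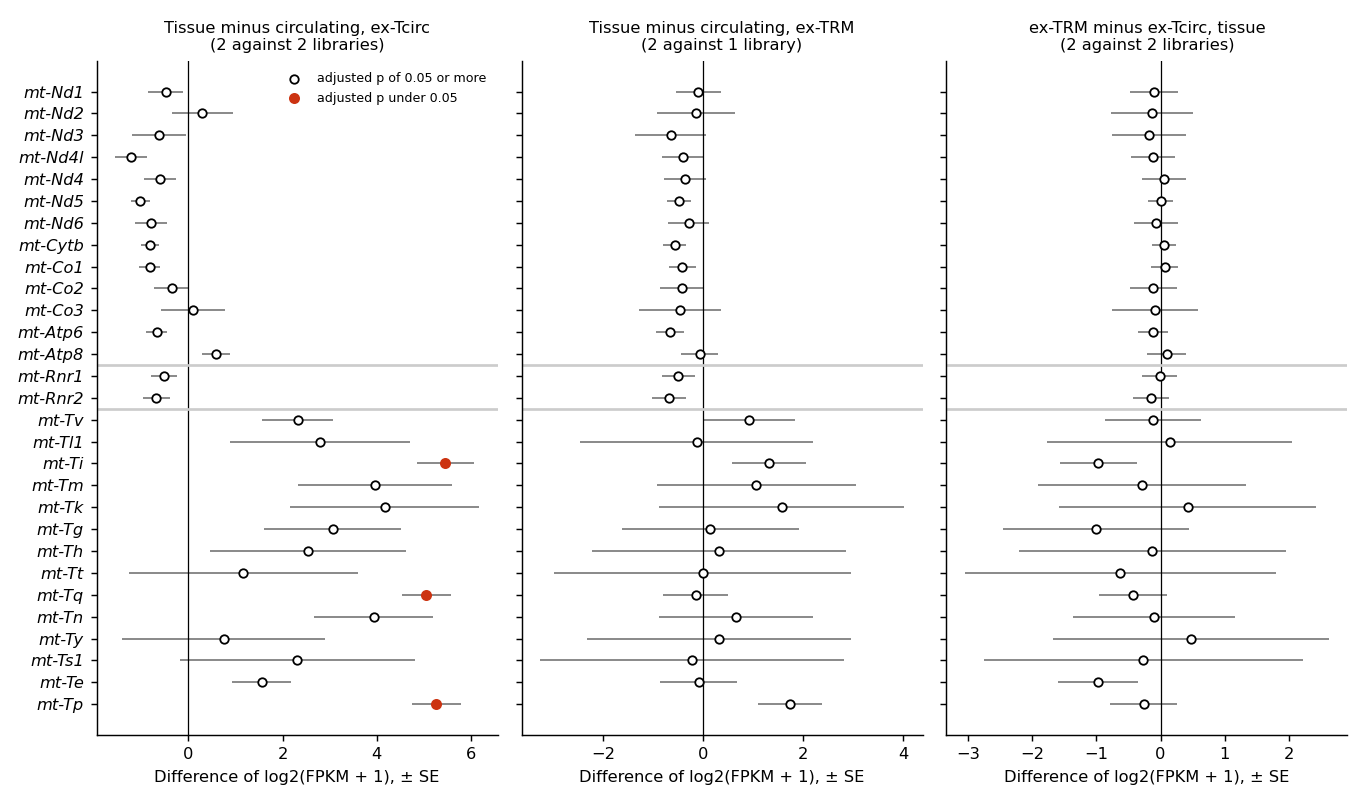
Difference of log2(FPKM + 1) with its standard error for the 29 mitochondrial genes that reached the minimum level, in 3 comparisons of the limma fit. Filled points passed an adjusted p of 0.05, which only mt-Ti, mt-Tp and mt-Tq did, within ex-Tcirc, while the mRNAs and ribosomal RNAs of the comparison within tissue lie close to 0.

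No mitochondrial gene differed past the test between origins in tissue. Tissue ex-TRM minus tissue ex-Tcirc ranged from -0.18 for mt-Nd3 to 0.10 for mt-Atp8 over the 13 mRNAs, with standard errors from 0.19 to 0.67 and an adjusted p of 1 for each (limma). No gene of the 2656 was called (0%), 7 had an unadjusted p under 0.05, and none of these was mitochondrial. mt-Nd1, mt-Nd2, mt-Nd6 and mt-Co2 were lower in both ex-TRM libraries and mt-Co1 was higher in both, while 12.5% of genes tested were lower and 40.4% higher without overlap, or 14.8% and 38.1% of those above 0 in all 7 libraries. These values do not show that the groups are alike, since the standard errors allow differences of a size seen between the locations for some genes. The difference of the location effects between the 2 origins was not called for any mitochondrial gene either, beside 0.151% of all genes, with an adjusted p of 0.841 to 0.997 for the mRNAs (limma).

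Summed over the 13 mRNAs, the level was 4102, 3934, 3836 and 3968 FPKM in tissue and 7788, 5283 and 5248 in circulation. The 2 ribosomal RNAs summed to 24213, 24090, 23052 and 23068 FPKM in tissue and to 41868, 31025 and 34401 in circulation. The tissue libraries lay close together in both sums, and the circulating ones were higher and more spread. All 37 genes made up 1.80% to 2.04% of the summed FPKM of all names in tissue and 3.58%, 3.88% and 2.70% in circulation. Of that sum a single name, Gm23935, held 22.9% to 32.5% in the 7 libraries, and nuclear protein-coding names held 10.2% to 14.1%. The sum itself was 939087 FPKM in circulating ex-Tcirc replicate 2, against 1382509 to 1632198 in the rest of the 7 libraries. These shares therefore also move with the total they are set against.

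The size of the difference depended on what the sums were set against. Per 100 FPKM of nuclear protein-coding names, the 13 mRNAs came to 2.59, 2.29, 2.03 and 2.04 FPKM in tissue and 4.82, 5.24 and 2.62 in circulation. On this scale the circulating ex-Tcirc libraries stood apart and circulating ex-TRM lay next to tissue ex-Tcirc. Per FPKM of the 12 housekeeping genes the mRNA sum was 1.44, 1.07, 1.09 and 1.01 in tissue and 1.45, 1.35 and 1.11 in circulation, so that the locations overlapped.

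**Figure D3:**
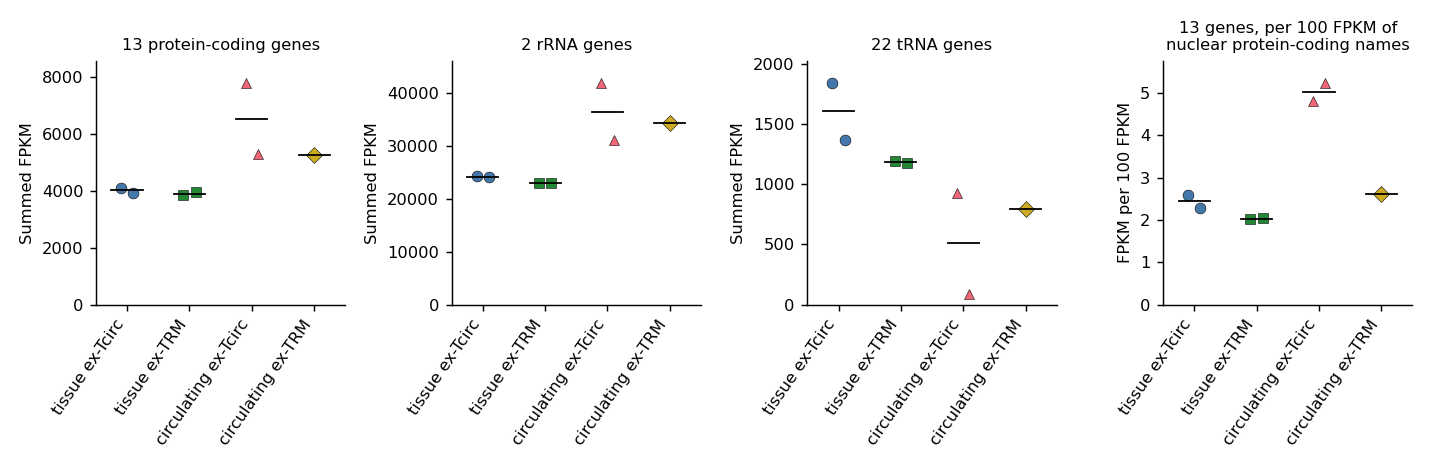
Summed FPKM of the protein-coding, ribosomal RNA and transfer RNA genes, and the protein-coding sum per 100 FPKM of nuclear protein-coding names, in each of 7 libraries (points) with the group mean (line). The mRNA and ribosomal RNA sums were higher in the 3 circulating libraries, the transfer RNA sum was lower there, and on the nuclear scale circulating ex-TRM fell to 2.62, close to tissue ex-Tcirc.

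Single genes moved with the scale as well. Scaled to the nuclear protein-coding sum, 12 of 13 mRNAs were lower in tissue on average over the origins (all but mt-Atp8), 5 without overlap beside 15% of genes tested, with a median of -0.69 beside 0.32 for all genes. Within ex-Tcirc that scale gave 10 of 13 without overlap, beside 24.9% of genes, and called 3 mRNAs lower, mt-Nd4l, mt-Nd6 and mt-Co1, beside 1.28% of genes. Within tissue it placed all 13 mRNAs lower in ex-TRM than in ex-Tcirc, 11 of them without overlap beside 30% of genes, at a median of -0.31 beside -0.04 for all genes, and none was called. With median-of-ratios factors, which align the libraries on their typical gene, 10 of 13 were lower in tissue (mt-Nd2, mt-Co3 and mt-Atp8 were higher), 4 without overlap beside 7.57% of genes, at a median of -0.34 beside 0.62 for all genes. Within ex-TRM these factors left 9 of 13 lower (mt-Nd1, mt-Nd2, mt-Nd6 and mt-Atp8 were higher).

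The order of the mRNAs was alike across libraries, while the shares of some moved. mt-Co1 and mt-Atp6 held the top ranks in all 7 libraries, and mt-Nd3 was the lowest in 6 of 7, with mt-Atp8 below it in circulating ex-Tcirc replicate 1. Spearman's rho over the 13 genes was 0.967 to 0.989 for the 6 pairs of tissue libraries, 0.934 to 0.951 for the 3 pairs of circulating libraries and 0.890 to 0.973 for the 12 mixed pairs; these describe gene order within libraries that share genes and lengths, and genes are not independent replicates. mt-Nd2 held 5.43% to 5.98% of the mRNA sum in tissue and 1.94% to 4.53% in the circulating libraries. Complex I genes made up 43.2% to 45.0% of the mRNA sum in tissue and 48.8%, 43.5% and 40.4% in circulation. Complex IV genes made up 26.3% to 27.8% in tissue and 25.4% to 27.5% in the circulating libraries. The ratio of ribosomal RNA to mRNA was 5.81 to 6.12 in tissue and 5.38 to 6.56 in the circulating libraries, so that the ratio moved less than either sum.

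Values of 4 mRNAs cannot be separated from nuclear names in these files. In each of the 7 libraries mt-Atp6 was within 10% of the name Gm10925, mt-Co2 of Gm28661, mt-Co3 of Gm28437 and mt-Nd4l of Gm10222, a search made after the values were seen, over 55254 names. Ratios of the nuclear to the mitochondrial value ranged from 1.01 to 1.02 for mt-Atp6, 0.994 to 1.004 for mt-Co2, 0.998 to 1.04 for mt-Co3 and 0.998 to 1.03 for mt-Nd4l. The RefSeq table (GRCm38.p6) lists Gm10925 (chr1, 24613971 to 24614651) and Gm10222 (chr1, 24612404 to 24612700) as pseudogenes. They are 681 and 297 bases long, as are mt-Atp6 and mt-Nd4l, and from the outer end of one to that of the other they span 2248 bases, beside 2247 in the mitochondrial genome. How reads were shared between such near-identical copies is not given in the sources used here, so the levels of these 4 genes are uncertain. In the mitochondrial genome that span also holds mt-Tg, mt-Nd3 and mt-Tr. The search took in only the 18 mitochondrial genes above 0 in all 7 libraries, and only names of near-equal value. It therefore does not clear the other genes, whose reads may also be shared with nuclear copies, which was not tested. Adding each pair's values together was an alternative chosen after seeing the data. It changed no call and left mt-Atp6 at -0.67 and mt-Nd4l at -0.82 for tissue minus circulating. The pairs were picked for near-equal values in every library, so their sum could hardly move a difference and is no check on the copies.

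**Figure D4:**
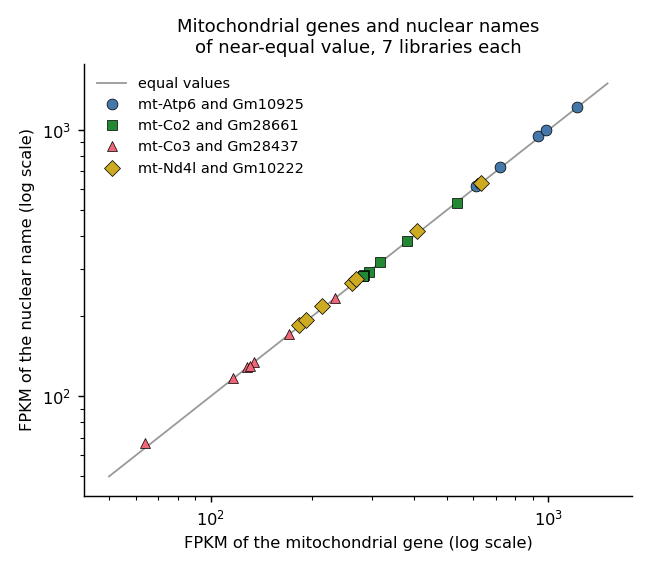
FPKM of 4 mitochondrial genes (horizontal) against the nuclear name of near-equal value (vertical), both on log scales, with 7 libraries for each pair and a line of equal values. All 28 points lie on or close to the line, in tissue and circulating libraries alike.

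Transfer RNAs stood the other way in their sum. These are short RNAs that carry amino acids to the ribosome, and their genes are 59 to 75 bases long. All are shorter than mt-Atp8, so the caution given there about FPKM of short genes applies to each. Whether the reads came from finished transfer RNAs or from uncut transcripts was not tested. Their summed level was 1838, 1366, 1187 and 1173 FPKM in tissue and 923, 91.1 and 797 in circulation. All 4 tissue sums lay above all 3 circulating sums. Of the 22, 21 or 22 were above 0 in each tissue library and 11, 5 and 21 in circulation, and 9 were at 0 in both libraries of circulating ex-Tcirc. The lowest transfer RNA value above 0 was 10.3 and 14.5 FPKM in circulating ex-Tcirc and 0.331 to 1.58 FPKM in the other 5 libraries, so that low levels could not be seen in circulating ex-Tcirc. Per 100 FPKM of mitochondrial mRNA, transfer RNA came to 44.8, 34.7, 30.9 and 29.6 FPKM in tissue and 11.9, 1.72 and 15.2 in circulation.

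In 10 of 22 transfer RNA genes every tissue library was above every circulating library, and in none was it below. Of the 22, 14 reached the minimum level for the test, and those that were at 0 in circulating ex-Tcirc did so through the other groups. Among the 14, 7 separated in that direction, beside 12.1% of all genes tested. Of the 3 above 0 in all 7 libraries, mt-Tv and mt-Tg did, beside 8.47% of such genes. Within ex-TRM the direction was mixed. There 9 of the 14 had a positive difference and 5 a negative one, at a median of 0.31 beside -0.06 for all genes. The tests called 3 of the 29 mitochondrial genes higher in tissue (limma), beside 6.55% of all genes over both origins and 8.36% within ex-Tcirc. These were mt-Ti, mt-Tp and mt-Tq, which carry isoleucine, proline and glutamine, and in both circulating ex-Tcirc libraries all 3 were listed at 0. mt-Ti was at 60.3, 30.4, 26.4 and 17.2 FPKM in tissue and 0, 0 and 8.01 in circulation. mt-Tp was at 29.5, 47.1, 26.6 and 36.0 FPKM in tissue and 0, 0 and 8.55 in circulation. mt-Tq was at 28.3, 36.5, 31.0 and 17.9 FPKM in tissue and 0, 0 and 26.3 in circulation, the last of these inside the range of tissue. The zeros add no spread to the fit, and these genes reached the minimum level through the other groups, so their p-values are not given and the calls support no difference. No fold is given against a group at 0.

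The calls of all genes, these 3 among them, depended on which libraries were in the fit. Over both origins, leaving out any single tissue library ended every call, mitochondrial or not (limma). Within ex-Tcirc, leaving out tissue ex-TRM replicate 2 did the same. The loss was thus not particular to these 3 genes. Without circulating ex-Tcirc replicate 1 or 2, 21 of the 29 mitochondrial genes were called over both origins, in either direction, and 21 or 22 within ex-Tcirc, the mRNAs given above among them. The share of all genes called was then 69% and 38.1% over both origins and 73.3% and 39.7% within ex-Tcirc, so that without replicate 1 the mitochondrial genes stood near the background. Within ex-TRM, where the circulating library held 21 of 22 transfer RNAs, none was called. mt-Tp alone had an unadjusted p under 0.05, and its log2 difference was 1.74 ± 0.64 (SE; limma, adjusted p = 1). The difference of the location effects between origins was not called for any transfer RNA (limma). For mt-Ti, mt-Tp and mt-Tq its size depends on the zeros in circulating ex-Tcirc, so neither size nor p is given.

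Only mt-Tv, mt-Tg and mt-Te, which carry valine, glycine and glutamate, were above 0 in all 7 libraries. mt-Tv, which lies between the 2 ribosomal RNA genes, was at 229.9, 229.6, 243 and 184 FPKM in tissue and 94.0, 21.5 and 112 in circulation. It lay below tissue in all 3 circulating libraries, where both its neighbours lay above tissue. mt-Tg was at 857, 356, 265 and 287 FPKM in tissue and 264, 15.6 and 249.8 in circulation, so that 2 of the circulating values came near those of tissue ex-TRM. mt-Te was at 93.0, 75.5, 41.1 and 43.4 FPKM in tissue and 49.8, 15.4 and 45.0 in circulation, and overlapped. The log2 differences over both origins had standard errors of up to 1.97 among the transfer RNAs tested, against at most 0.53 among the mRNAs.

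**Figure D5:**
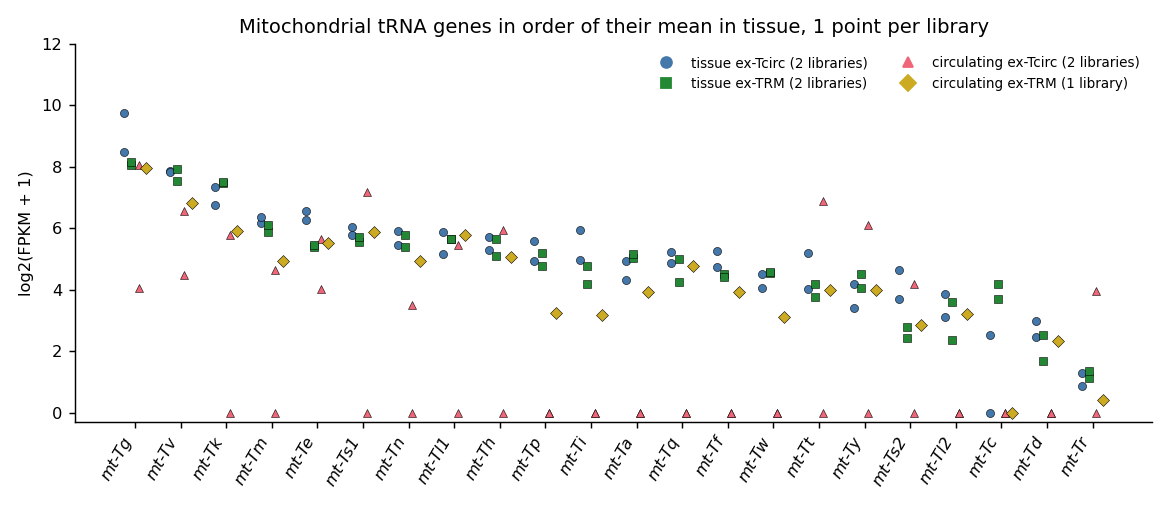
log2(FPKM + 1) of the 22 transfer RNA genes in 7 libraries, 1 point per library, in order of their mean in tissue; points at 0 are values listed at 0. Most points at 0 belong to circulating ex-Tcirc, where 9 genes are at 0 in both libraries, while circulating ex-TRM lies within or somewhat below the tissue values.

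A few transfer RNAs ran against their class. mt-Ts1 reached 146 FPKM in circulating ex-Tcirc replicate 1, above the 46.2 to 65.6 of tissue, and was at 0 in replicate 2. mt-Tt reached 117 FPKM in replicate 1, against 12.6 to 35.5 in tissue, and was also at 0 in replicate 2. These genes were chosen after their values were seen, and each rests on 1 library. The remaining transfer RNAs, mt-Tr aside, had tissue means from 4.58 to 156 FPKM and circulating means from 0 to 37.7 FPKM, apart from mt-Ty at 16.1 and 27.5. mt-Tr was at most 1.58 FPKM in tissue but reached 14.5 FPKM in circulating ex-Tcirc replicate 2.

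Of the nuclear partners of these genes, few could be tested. Of 72 nuclear genes for subunits of complexes I, III and IV and ATP synthase found in the files, 39 were at 0 throughout circulating ex-Tcirc and 20 reached the minimum level. Over both origins 4 of the 20 were called higher in tissue and none lower, beside 6.55% of all genes called higher and 0.791% lower: Atp5h and Atp5j of ATP synthase, Cox6a1 of complex IV and Uqcrh of complex III, each of them listed at 0 in the circulating ex-Tcirc pair. They reached the minimum level through the other groups, so their calls are no support for a difference. Uqcrh, for example, was at 29.2, 44.3, 39.7 and 34.3 FPKM in tissue and 0, 0 and 44.9 in circulation. The 20 had a median difference of 0.33 over both origins, 1.42 within ex-Tcirc and -0.53 within ex-TRM, beside -0.54, -0.62 and -0.42 for the mitochondrial mRNAs and 0.43, 0.87 and -0.06 for all genes. Within ex-TRM, where no gene was called, all 20 nuclear and all 13 mitochondrial genes had a negative difference.

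The sum of the 13 mitochondrial mRNAs was 4.24, 3.23, 3.20 and 3.06 times that of the nuclear subunits in tissue and 5.83, 12.7 and 3.22 times in circulation. The ratio was highest in circulating ex-Tcirc, whose libraries have many nuclear genes at 0. Circulating ex-TRM thus lay inside the tissue range.

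Of 7 nuclear regulators chosen by name, 6 were low throughout or listed at 0. Polg, the DNA polymerase of the organelle, was at 12.6, 24.98, 25.1 and 22.8 FPKM in tissue and 8.22, 13.6 and 10.7 in circulation. Polrmt, its RNA polymerase, ranged from 5.80 to 11.5 FPKM in tissue, against 0, 0 and 5.93 in circulation. Tfam, which packs the DNA and starts transcription, ranged from 0 to 5.91 FPKM in tissue, against 0, 0 and 4.10 in circulation. Twnk, the helicase that unwinds the DNA, ranged from 2.35 to 3.44 FPKM in tissue, against 0, 0 and 3.92 in circulation. Lrpprc, which stabilises mitochondrial mRNAs, ranged from 9.78 to 12.5 FPKM in tissue, against 0, 0 and 9.51 in circulation, while its partner Slirp was listed at 0 in all libraries. Ppargc1a, a coactivator of mitochondrial gene programmes, ranged from 0.785 to 2.90 FPKM in tissue, against 0, 0 and 1.16 in circulation. In circulating ex-Tcirc, Polg alone of these 7 was above 0.

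None of these 7 genes reached the level for the test. Of 15 genes of mitochondrial DNA transcription and replication 1 was tested, of 20 genes of mitochondrial RNA processing and 8 regulators of biogenesis none was, and of 80 ribosomal proteins of the organelle 1 was. The first is Polg2, the accessory subunit of the DNA polymerase, at 39.3, 36.2, 41.8 and 36.3 FPKM in tissue and 36.8, 37.2 and 42.9 in circulation, so that its level differed little in any library. The other is Mrpl52, of the large ribosomal subunit, at 22.1 to 28.5 FPKM in tissue, while circulating ex-Tcirc held 33.2 and 0 and circulating ex-TRM 51.5. Both were named after their values were seen. None of those tested was called in any comparison, and 12, 16, 6 and 60 of these genes were at 0 throughout circulating ex-Tcirc.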

How the data were processed

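RNA-seq of sorted cells gave 8 libraries in 4 groups. The deposited FPKM values were made by the authors, per the file headers. Per the submitters' processing notes, the build was mm10 and the tools were Trim Galore 0.6.7, HISAT2 2.2.1, SAMtools 1.15 and StringTie 3.0.1, with MACS2 2.2.7.1 and HOMER 4.11, and no role for any of them. How reads with several matches, strand and annotation were handled is not given in the sources used here. Read depth is not part of these values, so no counting interval could be made, and a 0 can be a failed estimate.

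Groups and replicate numbers came from the sample titles. FPKM was summed per name. limma 3.58.1 (R 4.3.3) was fitted on log2(FPKM + 1) over genes with a mean of at least 20 FPKM in 7 libraries, with group means, an intensity trend and Benjamini-Hochberg adjustment over all 2656 genes for each of 5 comparisons, at a threshold of 0.05. The pseudocount of 1 makes fold changes of low genes smaller. The fit was tested on simulated data with normal noise, the same spread in all groups and no runs of 0. That test does not show how the fit treats the zeros and the uneven libraries here. The fit assumes equal spread in all groups, and circulating ex-TRM replicate 1 was left out as nearly empty. Sums and ratios over genes carry no test.

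Values in every library are given for all mRNA and ribosomal RNA genes, and for transfer RNA genes above 0 in 7 libraries or past a test. Among nuclear genes, those past a test and 7 regulators are named. The members and lists were chosen with earlier results of these data known. Positions come from the RefSeq table for GRCm38.p6; 70.9% of names matched it. Alternatives were another pseudocount, 3 other filters, 2 scalings, a replicate block, all 8 libraries, no trend, only the groups compared and leaving out each library.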

Additional observations from a re-analysis of the deposited data

Results flagged for a closer look

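mt-Nd5 was at 2423 FPKM in circulating ex-TRM replicate 1, the nearly empty library that enters no comparison, against at most 708 FPKM in the other 7. In that library 9 of the 13 mRNAs and all 22 transfer RNAs were listed at 0, while mt-Co2 was at 168 FPKM, mt-Co1 at 51.0 and mt-Nd6 at 47.9. mt-Rnr1 was at 5411 FPKM and mt-Rnr2 at 90.4 FPKM.

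mt-Te was higher in both tissue libraries than in both circulating ones within ex-Tcirc, and lower in both tissue libraries than in the 1 circulating library within ex-TRM. The difference between these location effects was -1.65 on the log2 scale (SE 0.99; limma, adjusted p = 0.841), so it did not pass the test.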

How the results depend on the processing

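The number of genes tested depended on the filter, so counts under the filters are out of different totals, here and over all genes. A minimum of 1 FPKM in 2 libraries tested 28325 genes, and no filter tested 43037, each with 37 mitochondrial genes. Genes above 0 in all 7 libraries were 1558, with 18 mitochondrial. With the minimum mean of 20 FPKM, 2656 genes were tested. Of these, 29 were mitochondrial, and 3 of the 29 were called over both origins. The count was 5 with a pseudocount of 0.1 (3 higher in tissue, and mt-Nd5 and mt-Cytb lower), 6 with a minimum of 1 FPKM in 2 libraries, 6 with no filter, 0 among genes above 0 in all 7 libraries, 0 with median-of-ratios factors, 0 with all 8 libraries and 0 to 21 on leaving out 1 library. Within ex-Tcirc the 3 became 5 (the same split), 8, 8 and 0 under the first 4 of these, 6 on the nuclear protein-coding scale (3 higher, 3 lower), 0 with all 8 libraries and 0 to 22 on leaving out 1. For the difference of the location effects between origins, the 0 called became 3 with a pseudocount of 0.1 and 5 with either looser filter. That count was 1 with no trend and 0 to 15 on leaving out 1. Within ex-TRM, and between origins in tissue, no mitochondrial gene was called under any alternative.

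Over all genes, the 195 calls over both origins became 3618, 4345 and 1 under the 3 filters, 56 with median-of-ratios factors, 0 with all 8 libraries and 0 to 1833 on leaving out 1. The 242 within ex-Tcirc became 5984, 4981 and 13, 0 with all 8 libraries and 0 to 1948. Within ex-TRM, 0 became 854 with no filter, 3 with only the groups compared and 0 to 16 on leaving out 1, and in tissue 0 became 584 with no filter. The 4 calls for the difference of the location effects between origins became 179 with a pseudocount of 0.1. Under the 3 filters they became 2099, 3165 and 0. They became 0 with median-of-ratios factors, 0 with all 8 libraries, 156 with no trend and 0 to 1691 on leaving out 1.

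Among the other groups, leaving circulating ex-TRM aside, same-numbered libraries did not deviate together over the genes tested (correlations of -0.09, 0.01 and -0.04). Whether they share a mouse or a preparation is not in the labels and was not tested. With the replicate block, 0 genes and 0 mitochondrial genes were called over both origins, and 158 and 2 within ex-Tcirc. For the difference of the location effects between origins, 0 genes were called. mt-Nd2 turned to -0.073 over both origins with this block.

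Signs turned as follows, and the cause was not tested. On the nuclear scale mt-Nd2 and mt-Co3 within ex-Tcirc came to -0.063 and -0.26, and mt-Nd2 over both origins to -0.070. With median-of-ratios factors mt-Co3 over both origins came to 0.017. On leaving out 1 library, values within ex-Tcirc ran from -0.58 to 1.19 for mt-Nd2, -0.82 to 1.03 for mt-Co3, -1.34 to 0.092 for mt-Nd3 and -0.81 to 0.10 for mt-Co2, and over both origins from -0.36 to 0.52 for mt-Nd2 and -0.64 to 0.28 for mt-Co3, each with its ends at circulating ex-Tcirc replicates 1 and 2. With all 8 libraries, which takes in the nearly empty one, mt-Nd1 came to 1.82, mt-Nd3 to 0.81, mt-Nd4 to 1.52, mt-Nd4l to 1.21, mt-Nd6 to 0.29, mt-Cytb to 1.60, mt-Co1 to 0.41, mt-Co3 to 1.68, mt-Atp6 to 1.82 and mt-Rnr2 to 1.14.

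The share of the 13 mRNAs in the summed FPKM stayed higher in the circulating mean, at 1.73 to 2.14 times tissue on leaving out 1 library. That share also depends on the summed FPKM of all names, which was lowest of the 7 libraries in circulating ex-Tcirc replicate 2. With 1 circulating ex-TRM library, no value could be had without it for 3 of the 5 comparisons. Read depth is unknown, so what it limits could not be measured; names above 0 were fewest in circulating ex-Tcirc among the 7 libraries.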
